A study of Mus musculus with 12 samples.

Results

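The 636 genes described here lie on mouse chromosome 8 and were measured on arrays from 3 lines of embryonic stem cells in 2 culture states. They were selected by measured level: of 961 chromosome 8 genes with a probe set assigned to 1 gene only, the members are those whose mean over all 12 arrays reached the median of all deposited values, 7.22 on the log2 scale. The other 325 fell below it. Each gene is represented by its probe set with the highest mean. The whole series gave 19936 genes, of which 11860 reached the same level, and 11224 of these lie outside chromosome 8. The members closest to the limit were Rrad (7.22), Irf8 (7.23) and Atp7b (7.23), and the nearest genes left out were Cdh5 (7.20) and Rab3a (7.20), together with Hpgd (7.19) among those with established names. By annotation 618 members are protein-coding and 6 are microRNA genes. For 599 members a single probe set was available, and 37 had several.

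The study lowered SET, a histone chaperone and inhibitor of the phosphatase PP2A, in R1 cells, a mouse embryonic stem cell line, and recorded expression on 1-colour Affymetrix gene arrays. The 3 lines carried a scrambled control infection, the SET knockdown KD1 or the SET knockdown KD2. The labels call the knockdown and control cells clones, so each line stands for 1 derivation and a difference between lines cannot be told apart from a difference between clones. Growing stem cells (ESC) were kept in 15% serum with 1000 U/ml of leukemia inhibitory factor. Differentiated cells (RA) had lost that factor, received 10% serum and spent 4 days with retinoic acid at 1 µM, so the states differ in these 3 things at once. Each line and state has 2 arrays, which makes 6 groups. With 1 line per condition, the p-values measure variation among arrays of a line, not among independent lines.

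Mouse chromosome 8 has its centromere at the end where the gene order starts, with the insulin receptor gene Insr among the first genes, and it ends near the integrin gene Itgb1 and the semaphorin receptor gene Nrp1. It carries genes of every housekeeping class beside developmental regulators such as the forkhead genes Foxf1 and Foxc2, a group of cadherins and the metallothioneins. Extra copies of chromosome 8 are among the best known changes that mouse embryonic stem cells acquire in culture. DNA copy number was not measured in this series.

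Before the results, 2 arrays need to be named. The array labelled ESC KD2 replicate 2 correlated at 0.973 on average with the RA arrays and at 0.839 with the ESC arrays, across the 11860 genes. The array labelled RA KD2 replicate 2 correlated at 0.975 with the ESC arrays and at 0.836 with the RA arrays. Each thus resembled the other state. All fits below use the other 10 arrays. Of 134 calls on named members over all 9 comparisons made, 109 were lost and 1 changed sign with all 12 arrays. KD2 then has 1 array in each state, and its test assumes that this array varies like those of the other groups.

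The probe sets read for Set RNA gave a mixed check of the knockdown. The 2 bright probe sets, shared with the predicted gene BC085271, were lower in KD1 than in scrambled, with differences of -0.78 and -0.75 in ESC and of -1.06 and -0.95 in RA. In KD2 replicate 1 the same differences ran from -0.74 to -0.59. The 2 dimmer probe sets assigned to Set alone differed by between -0.59 and 0.24. The 5 measured Y-linked genes averaged 9.29 and 9.38 in scrambled ESC arrays and 7.86 to 8.0 in the knockdown ESC arrays other than the array labelled replicate 2 of KD2, which stood at 7.53. In RA they averaged 8.38 and 8.53 in scrambled arrays, 7.27 and 7.49 in KD1 and 7.64 in KD2, against 8.38 in the array labelled RA KD2 replicate 2. Of these 5 genes, 3 fell in KD1 ESC cells and 4 in KD1 RA cells (limma, adjusted p under 0.05), where 1.07% and 6.69% of all genes fell. The genes were not alike. Kdm5d read 7.53 and 7.48 in scrambled ESC arrays, 5.64 and 5.74 in KD1 and 5.51 in KD2 replicate 1. Eif2s3y stayed between 10.37 and 10.78 in all arrays. The part of the Y-linked difference between lines in the results below was not tested.

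Sequence upstream of the start was on record for 452 members in the RefSeq tables (GRCm38.p6). The 4 stretches shown belong to members that carried the differences described below: Efnb2, Naxd and Cul4a lie in the first of 10 blocks of the gene order and Hmgxb4 in its middle. Each is the 250 bases before the annotated start that is farthest upstream, 5′ to 3′ on the gene's own strand, with CG pairs in capitals.
Efnb2 (chr8:8661243-8661492, minus strand): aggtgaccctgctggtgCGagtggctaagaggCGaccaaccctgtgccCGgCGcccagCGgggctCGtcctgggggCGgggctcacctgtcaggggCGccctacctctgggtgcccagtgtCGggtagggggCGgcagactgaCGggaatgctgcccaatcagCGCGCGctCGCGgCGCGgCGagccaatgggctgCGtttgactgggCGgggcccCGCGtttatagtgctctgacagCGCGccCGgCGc
Naxd (chr8:11497256-11497505, plus strand): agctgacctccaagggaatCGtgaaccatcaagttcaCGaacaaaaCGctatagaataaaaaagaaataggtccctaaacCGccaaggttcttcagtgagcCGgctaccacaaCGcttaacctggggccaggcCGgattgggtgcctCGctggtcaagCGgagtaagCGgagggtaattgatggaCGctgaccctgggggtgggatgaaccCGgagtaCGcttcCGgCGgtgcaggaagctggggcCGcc
Cul4a (chr8:13105373-13105622, plus strand): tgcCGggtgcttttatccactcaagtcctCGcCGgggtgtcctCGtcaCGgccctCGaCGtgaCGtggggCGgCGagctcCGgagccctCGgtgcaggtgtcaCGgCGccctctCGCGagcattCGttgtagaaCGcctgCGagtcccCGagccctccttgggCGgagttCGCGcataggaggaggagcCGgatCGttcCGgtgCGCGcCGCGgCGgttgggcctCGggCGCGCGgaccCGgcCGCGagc
Hmgxb4 (chr8:74993400-74993649, plus strand): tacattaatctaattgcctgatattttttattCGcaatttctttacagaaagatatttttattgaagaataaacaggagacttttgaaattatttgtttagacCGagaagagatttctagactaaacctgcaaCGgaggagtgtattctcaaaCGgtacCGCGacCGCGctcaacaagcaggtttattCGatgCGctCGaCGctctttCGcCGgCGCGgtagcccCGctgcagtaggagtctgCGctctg
These stretches hold 27, 16, 38 and 18 CG pairs and are 72.0%, 56.8%, 71.6% and 43.2% G or C. Over the 452 members the medians were 17 CG pairs and 61.6% G or C, and over 9082 other genes at the same level they were 16 pairs and 60.8%. The letters TATAAA were found on either strand in 6.19% of the members' stretches and in 6.12% of the others, against 13.0% of all 27025 genes in the table. CCAAT stood in 34.5% of members and 36.5% of the others (34.5% of all genes), and CCGCCC in 64.2% and 62.1% (33.0% of all genes). By these measures the members' upstream sequence was close to that of other genes at their level. Among the 4, Efnb2 holds all 3 motifs, Naxd holds CCAAT, Cul4a holds CCGCCC and Hmgxb4 holds none of them. The type IV collagen genes Col4a1 and Col4a2, which stand at places 27 and 28 in the gene order, have annotated starts on opposite strands at chr8 positions 11312826 and 11312805, only 21 bases apart.

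Mature sequences were on record for 3 of the 6 microRNA genes. They are shown because 2 of the 3 share a seed, with bases 2 to 8 in capitals.
mmu-miR-181c-5p (chr8:84178924-84178945, minus strand): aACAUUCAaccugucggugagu
mmu-miR-181d-5p (chr8:84178759-84178781, minus strand): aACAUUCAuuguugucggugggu
mmu-miR-24-3p (chr8:84208875-84208896, plus strand): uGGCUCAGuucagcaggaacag
The miR-181c and miR-181d 5p arms carry the same seed, and the arm from Mir24-2 carries another. The array reads RNA from these loci and not the mature form. Mir181c stood at 8.51 and 8.45 in scrambled ESC arrays, 8.42 and 8.43 in KD1 and 8.32 in KD2. In RA it stood at 8.38 and 8.73 in scrambled, 8.07 and 8.35 in KD1 and 8.23 in KD2. No microRNA gene was called in a comparison of a line with scrambled, and the largest of their differences was that of Mir181c in KD1 RA cells (-0.35, SE 0.15, limma adjusted p = 0.207). At 7.25 to 9.03 over all arrays, these 6 loci lie in the lower range of the members.

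The level of the chromosome as a whole separated the 3 lines. For each array, the offset is the median over the 636 members of the value minus the gene's own mean over 12 arrays. In scrambled ESC cells it was 0.090 and 0.105, and in scrambled RA cells 0.157 and 0.085. In KD1 it was -0.077 and -0.089 in ESC and -0.098 and -0.110 in RA. In KD2 it was -0.006 in ESC and -0.010 in RA, and the arrays labelled replicate 2 gave -0.048 and -0.050. The 4 scrambled arrays were thus above the 4 KD2 arrays, and these above the 4 KD1 arrays, with no overlap and with both states in each range. The means were 0.109 ± 0.033 (SD, n = 4) for scrambled, -0.028 ± 0.024 for KD2 and -0.094 ± 0.014 for KD1. The arrays labelled replicate 2 set the lower end of the KD2 range, which without them is -0.010 to -0.006. The step from KD2 down to KD1 was largely shared by genes of other chromosomes. Without those KD2 arrays, the members' median difference of KD1 from KD2 was -0.089 in ESC and -0.09 in RA. The other genes at the same level had medians of -0.065 and -0.061.

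In every scrambled array chromosome 8 had the highest offset of the 20 chromosomes compared, and in both KD1 RA arrays the lowest. The other 19 chromosomes of the scrambled arrays lay between -0.080 and 0.084. In the KD1 ESC arrays it ranked 17 and 19 from the top, and the X chromosome was lowest, at -0.159 and -0.144. The order of scrambled above KD2 and KD1 depended on the level limit. With all 961 genes the scrambled arrays ran from -0.004 to 0.054 and the KD1 arrays from -0.074 to 0.019, which overlap, while the KD2 arrays (-0.070 to -0.008) remained below scrambled. With the 326 members in the upper quartile of values, or with the mean in place of the median, scrambled arrays stayed above both knockdown lines but KD1 and KD2 overlapped. With the 4 scrambled arrays as the reference, offsets were -0.021 to 0.033 in scrambled, -0.176 to -0.125 in KD2 and -0.235 to -0.208 in KD1.

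**Figure D1:**
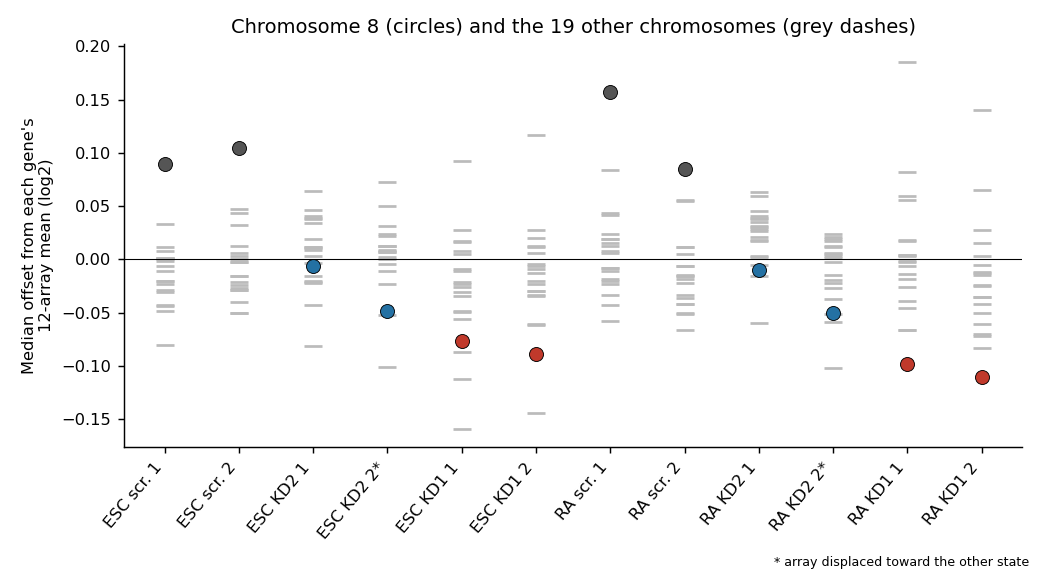
Offset of chromosome 8 (circles, coloured by line) and of each of the 19 other chromosomes (grey dashes) in each of the 12 arrays, as the median over genes of the log2 value minus the gene's mean over 12 arrays. The scrambled arrays lie at 0.085 to 0.157, the KD2 arrays at -0.050 to -0.006 and the KD1 arrays at -0.110 to -0.077.

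Against scrambled cells of the same state, the members' differences were shifted below 0 in both lines. In KD1 the median difference was -0.20 in ESC cells and -0.25 in RA cells, which is 87.0% and 84.1% of the scrambled level. The 11224 other genes at that level had medians of -0.02 in both states. In KD2 the median was -0.10 in ESC and -0.16 in RA (93.1% and 89.7%), against 0.04 and 0.03 for the other genes. Pairs of replicate arrays of scrambled and KD1 differed in such a median by an SD of 0.026, and all these shifts were larger than that. KD2 had no replicate pair in this fit, so its own spread between replicates was not measured. The spread between clones was not measured either. Both lines are set against the same scrambled arrays, so their shifts are not separate evidence of a difference from scrambled.

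The shift involved most members and not a few large changes. In KD1, 500 of the 636 members were below scrambled in ESC cells (78.6%, against 54.4% of the other genes) and 504 in RA cells (79.2%, against 53.5%). In KD2 423 were below in ESC (66.5%, against 43.1%) and 461 in RA (72.5%, against 43.7%). The quartiles of the members were -0.36 and -0.04 in KD1 ESC cells and -0.45 and -0.04 in KD1 RA cells. For KD2 they were -0.26 and 0.07 in ESC, and -0.33 and 0.01 in RA. By level, in 3 classes of 212 members from dim to bright, the medians were -0.12, -0.26 and -0.21 in KD1 ESC cells and -0.21, -0.32 and -0.22 in KD1 RA cells. In KD2 the classes gave -0.09, -0.10 and -0.12 in ESC and -0.10, -0.19 and -0.17 in RA. The same classes of the other genes all lay between -0.06 and 0.06.

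**Figure D2:**
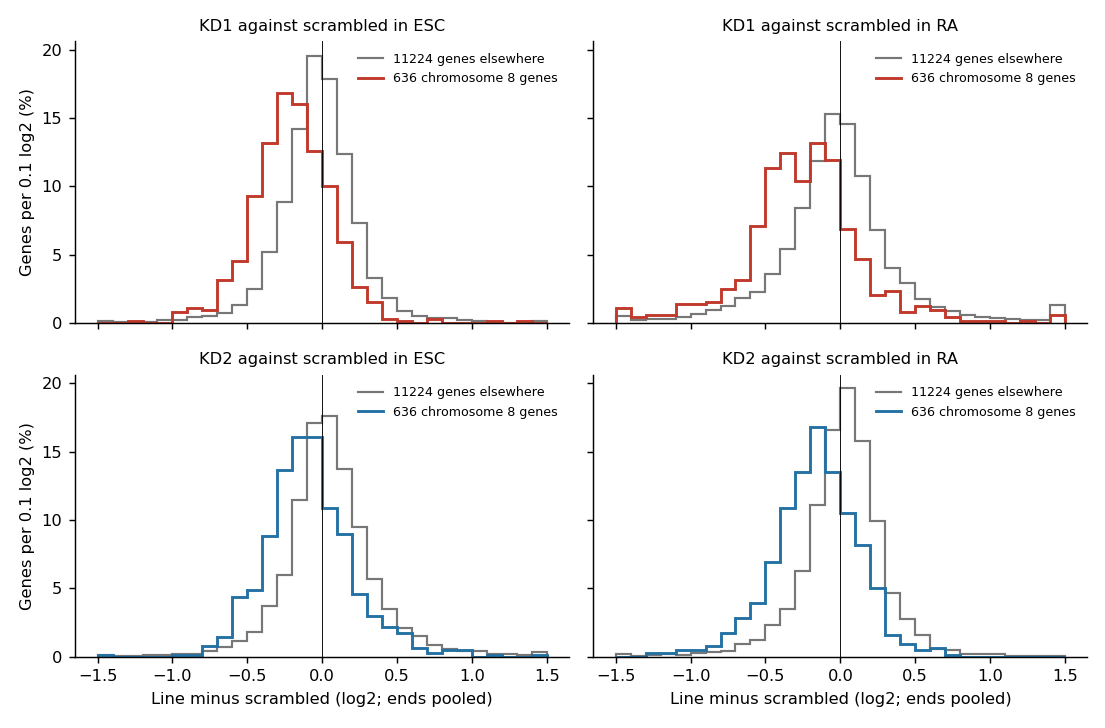
Distribution of the difference from scrambled (log2, in bins of 0.1, with values beyond 1.5 pooled in the end bins) for the 636 members (coloured) and the 11224 other genes at their level (grey), in percent of genes. In each of the 4 comparisons the members' curve lies to the left of that of the other genes, with medians of -0.20, -0.25, -0.10 and -0.16.

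Chromosome 8 had the lowest median of the 20 chromosomes in all 4 comparisons. The next lowest were X (-0.13) in KD1 ESC cells, chromosome 11 (-0.10) in KD1 RA cells and chromosome 6 in both KD2 comparisons (-0.05 in each). Chromosome 1 stood out on the other side in KD1, at 0.16 in ESC and 0.22 in RA. With all 12 arrays, the KD2 medians of the members were -0.13 in ESC and -0.17 in RA, and those of KD1 were as before.

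**Figure D3:**
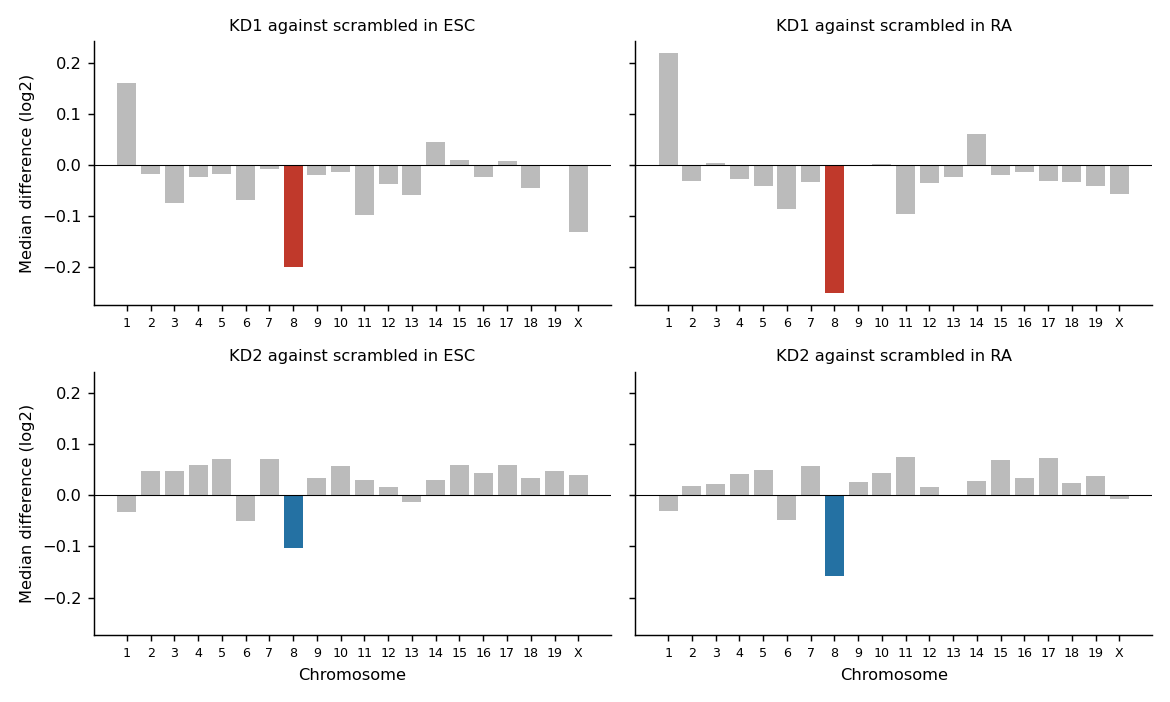
Median difference from scrambled (log2) over the genes of each chromosome at or above the level limit, in the 4 comparisons of a line with scrambled, with chromosome 8 coloured. Chromosome 8 is lowest in each panel, and chromosome 1 is highest in both KD1 panels.

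Position along the chromosome divided the members further. The 636 members were cut into 10 blocks of 63 or 64 by gene order. Block 1, from Insr to Alg11, had the lowest median in all 4 comparisons: -0.36 in KD1 ESC, -0.44 in KD1 RA, -0.28 in KD2 ESC and -0.37 in KD2 RA. Each was lower than all 178 blocks of similar size on the other chromosomes, whose lowest medians were -0.23, -0.20 (chromosome 11), -0.14 and -0.15. Blocks 2 to 4, from Nek3 to Dda1, came closest to scrambled: the 191 members there had medians of -0.09 and -0.10 in KD1 and of 0.03 and -0.03 in KD2, in ESC and RA. From block 5 on, Ano8 to Itgb1, the 381 members had medians of -0.23 and -0.29 in KD1 and of -0.15 and -0.18 in KD2. At 20 blocks, an alternative chosen after the data were seen, the stretches were less uniform. The 6 smaller blocks from Nek3 to Dda1 had medians from -0.20 to -0.04 in KD1 ESC, -0.33 to -0.02 in KD1 RA, -0.11 to 0.07 in KD2 ESC and -0.13 to 0.05 in KD2 RA. The lowest KD1 RA value there belonged to Upf1 to Dda1, where 28 of 32 members were below scrambled, a lower median than that of the 381 members from Ano8 on. The 12 smaller blocks from Ano8 on ranged from -0.38 to -0.09 in KD1 ESC, -0.41 to -0.17 in KD1 RA, -0.21 to -0.08 in KD2 ESC and -0.28 to -0.12 in KD2 RA, so the ranges of the later stretches overlap. The 3 stretches were joined after the block medians were seen, and no test was made on them.

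In every knockdown array block 1 lay below blocks 2 to 4, but it was not the lowest block in each of them. In block 1 the median difference from the mean of the scrambled arrays was -0.38 and -0.33 in the KD1 ESC arrays, -0.45 and -0.40 in the KD1 RA arrays, -0.28 in KD2 ESC and -0.37 in KD2 RA. The arrays labelled replicate 2 of KD2 gave -0.25 and -0.35. In blocks 2 to 4 the KD1 arrays gave -0.08 and -0.09 in ESC and -0.09 and -0.12 in RA, and the KD2 arrays 0.03 and -0.03, with 0.04 and -0.09 in the arrays labelled replicate 2. Block 8 was lower than block 1 in KD1 ESC replicate 2 (-0.39 against -0.33). Of the KD2 arrays labelled replicate 2, that of ESC was lowest in block 10 (-0.30 against -0.25). That of RA was lowest in block 8 (-0.38 against -0.35). The other knockdown arrays were lowest in block 1. All arrays of a state were set against the same 2 scrambled arrays, so their profiles are not independent. The scrambled arrays themselves stayed within 0.05 of their own mean in every block. With 2 scrambled arrays per state these deviations mirror each other (-0.05 and 0.05 in block 3 of ESC). The gap between the 2 arrays is thus larger than either deviation. With 20 blocks in place of 10, both parts of block 1 had low medians (KD1 RA -0.47 and -0.44, KD2 RA -0.33 and -0.42). In the next block, Nek3 to Bag4, KD2 was at 0.07 in ESC and at 0.01 in RA. The border between Alg11 and Nek3 is that of equal-sized blocks and not a measured step. The last 8 members of block 1, Cln8 to Alg11 at places 57 to 64, already scattered around 0 in KD1 RA cells (-0.45 to 0.43), whereas Erich1 at place 56 still read -0.54 there and -0.83 in KD2 RA cells, the second of these not called.

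**Figure D4:**
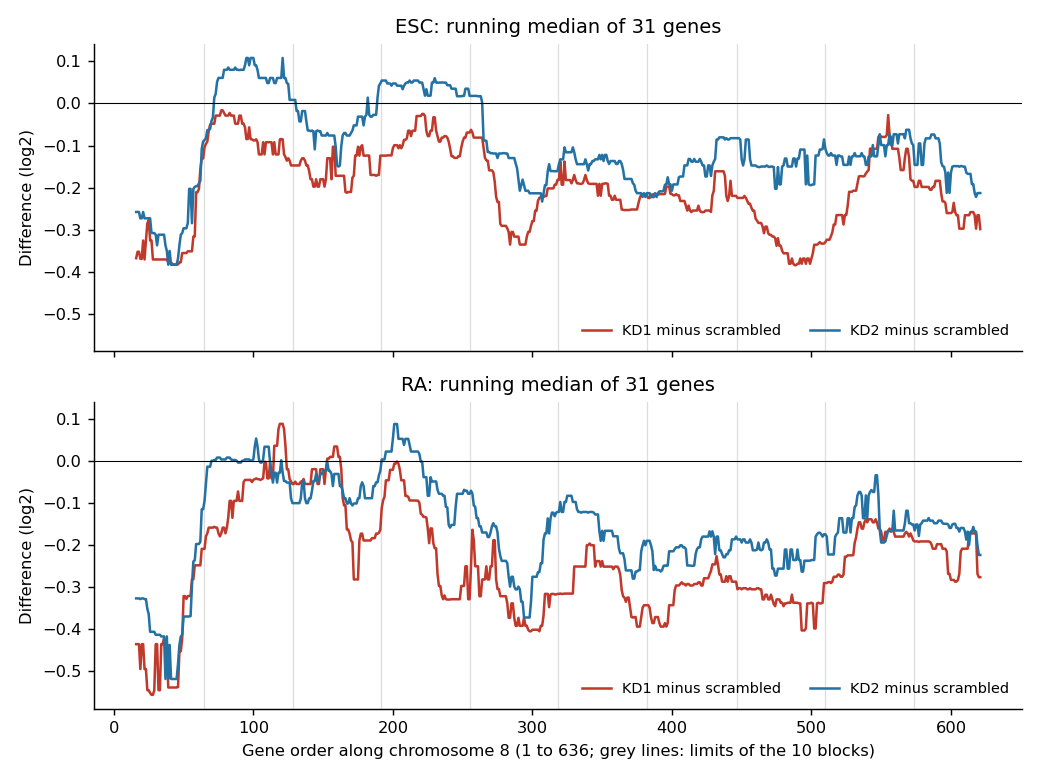
Running median over 31 neighbouring members of the difference from scrambled (log2) along the gene order of chromosome 8, for KD1 (red) and KD2 (blue) in ESC (top) and RA (bottom). The curves, which share the scrambled arrays, start at place 16 (KD1 RA -0.44, KD2 RA -0.33), rise before the end of block 1 to -0.21 and -0.11 at Alg11, and from place 256 on stay below 0 except in KD2 ESC cells, which reach 0.02.

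Non-overlap of single arrays was counted on the same values as the medians, so it describes the shift in another way and is not separate evidence. In 321 members (50.5%) both KD1 ESC arrays were below both scrambled ESC arrays, against 25.0% of all 11860 genes at the level limit, and in 412 members (64.8%) both KD1 RA arrays were below both scrambled RA arrays, against 37.5%. The ESC and RA comparisons use different arrays throughout. In 250 members (39.3%) KD1 was below in both states, against 12.6% of all, and in only 11 (1.73%) it was above in both, against 7.25% of all. The KD2 arrays of replicate 1 were below both scrambled arrays in both states for 248 members (39.0%), against 13.6% of all. With 1 KD2 array per state in place of 2, this criterion is looser than that of KD1. The shares of the 2 lines can therefore not be compared with each other. By position, KD1 was below in both states for 36 of 64 members of block 1 (56.2%), 37 of 191 in blocks 2 to 4 (19.4%) and 177 of 381 in blocks 5 to 10 (46.5%). For KD2 these shares were 56.2%, 19.9% and 45.7%. Both lines are counted against the same scrambled arrays, so their shares are not independent.

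Single members had a median standard error of 0.13 in KD1 and 0.16 in KD2, which is close to the size of the common shift. In KD1 ESC cells 24 members fell and 2 rose (limma, Benjamini-Hochberg adjusted p under 0.05 over all 19936 genes), where 1.07% of all genes fell and 0.843% rose. Of the genes at the level limit 1.42% fell, so the members' 3.77% was above this background. In KD1 RA cells 146 members fell (23.0%) and 25 rose (3.93%), where 6.69% of all genes fell, 5.38% rose, and 8.36% of those at the level limit fell. In KD2 ESC cells 2 members fell and 1 rose, where 0.271% of all genes fell and 0.717% rose, and in KD2 RA cells 7 fell and 1 rose, where 0.637% fell and 0.326% rose. The KD2 shares of fallen members, 0.314% and 1.10%, were close to or little above the background.

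These counts depended on the arrays used. With all 12 arrays no member was called in KD1 ESC cells (85 below and 5 above scrambled at an unadjusted p under 0.05, or 14.2% of members against 7.56% of all genes, with 0.0652% of all genes called), and 21 in KD1 RA cells, 18 lower and 3 higher (2.32% of all). None was called in KD2 ESC cells (95 below and 22 above at an unadjusted p under 0.05, or 18.4% against 10.3% of all genes, with 0.0853% of all called), and 1 fell in KD2 RA cells (0.271% of all). Leaving out 1 array at a time moved the 24 of KD1 ESC to 2 without KD1 replicate 2, to 8 without KD1 replicate 1, to 15 without ESC scrambled replicate 2 or either scrambled RA array and to 6 without either KD1 RA array. The 146 of KD1 RA became 50 and 65 without the first and second scrambled RA array, and 60 and 32 without the first and second KD1 RA array. The 25 that rose there became 14, 13, 11 and 6 in the same order. The 7 of KD2 RA became 19 without either scrambled ESC array and 0 without any one of the 4 RA arrays of scrambled and KD1. The 2 of KD2 ESC became 7 without scrambled ESC replicate 1, 1 without either KD1 ESC array, 0 without scrambled ESC replicate 2 or any one of the RA arrays of scrambled and KD1, and 2 without the KD2 RA array. The medians moved little, from -0.209 to -0.194 in KD1 ESC, -0.274 to -0.215 in KD1 RA, -0.103 to -0.093 in KD2 ESC and -0.184 to -0.127 in KD2 RA.

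In block 1 the exchange factor Arhgef7 passed the test in 3 of the 4 comparisons, as did Champ1, a protein of chromosome alignment in mitosis that is named here after its values were seen (differences of -0.52 and -0.75 in KD1 and of -0.55 and -0.63 in KD2, the third not called). Arhgef7 encodes an activator of the small GTPases Rac and Cdc42. It stood at 10.32 and 10.31 in scrambled ESC arrays, at 9.68 and 9.61 in KD1 and at 9.69 in KD2. In RA it stood at 10.88 and 10.70 in scrambled, 9.80 and 9.62 in KD1 and 9.85 in KD2. Every knockdown array, the 2 displaced ones included (9.86 and 9.66), was below every scrambled array. It fell in KD1 by 0.68 in ESC (SE 0.12, limma adjusted p = 0.0244) and by 1.08 in RA (SE 0.12, adjusted p = 0.00058), and in KD2 RA cells by 0.94 (SE 0.14, adjusted p = 0.0216). In KD2 ESC cells the difference was -0.62 (SE 0.14, adjusted p = 0.0998). With all 12 arrays it was still called in KD1 RA (adjusted p = 0.00862) and KD2 RA cells (adjusted p = 0.0396), and not in KD1 ESC cells (adjusted p = 0.252).

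Naxd, an enzyme that repairs damaged forms of NADH and NADPH, and Tubgcp3, a subunit of the gamma-tubulin complex that starts microtubules, had a like profile. Naxd read 10.44 and 10.35 in scrambled RA cells, 9.53 and 9.54 in KD1 and 9.55 in KD2. It fell by 0.86 in KD1 RA cells (SE 0.12, limma adjusted p = 0.00186) and by 0.84 in KD2 RA cells (SE 0.14, adjusted p = 0.0341). In ESC cells its differences were -0.33 and -0.57, and neither was called. Tubgcp3 read 10.73 and 10.66 in scrambled RA cells, 10.20 and 10.11 in KD1 and 10.00 in KD2, and it fell by 0.54 (SE 0.10, limma adjusted p = 0.01) and by 0.70 (SE 0.13, adjusted p = 0.0453). In both genes the knockdown arrays of RA did not overlap the scrambled ones. Neither was called in RA on all 12 arrays (adjusted p = 0.136 and 0.154 for Naxd, 0.0934 and 0.0642 for Tubgcp3, in KD1 and KD2).

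Cdc16, a subunit of the anaphase-promoting complex, read 10.79 and 10.91 in scrambled ESC arrays, 10.18 and 10.23 in KD1 and 10.34 in KD2. It fell in KD1 ESC cells by 0.65 (SE 0.10, limma adjusted p = 0.0129), and the other differences ran from -0.62 to -0.32. Cul4a, the scaffold of a ubiquitin ligase, fell in KD1 RA cells by 0.68 (SE 0.18, limma adjusted p = 0.0385), from 9.83 and 9.84 in scrambled to 9.24 and 9.07. Timm44, part of the motor that imports proteins into mitochondria, was nearest to the middle of block 1: its differences were -0.40 and -0.26 in KD1 and -0.42 and -0.33 in KD2, none called. The ephrin ligand Efnb2 differed from its neighbours in size and between the lines. In ESC cells it read 8.62 and 8.28 in scrambled, 7.70 and 7.44 in KD1 and 9.05 in KD2. In RA it read 11.47 and 11.40 in scrambled, 10.35 and 10.28 in KD1 and 10.67 in KD2. It fell in KD1 by 0.88 in ESC (SE 0.15, limma adjusted p = 0.0217) and by 1.13 in RA (SE 0.15, adjusted p = 0.00162), and the array of KD2 in ESC was above scrambled (0.60, SE 0.18, adjusted p = 0.216). On all 12 arrays none of these calls held (limma adjusted p = 0.252 for Cdc16, 0.218 for Cul4a, and 0.836 and 0.597 for Efnb2).

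Within the same block the collagen pair went the other way in KD1 RA cells. Col4a1 and Col4a2 encode the chains of type IV collagen, the main network of basement membranes. Col4a1 read 7.86 and 7.89 in scrambled ESC arrays, 8.27 and 8.10 in KD1 and 8.51 in KD2. In RA it read 9.85 and 9.47 in scrambled, 11.94 and 11.87 in KD1 and 9.93 in KD2. It rose by 2.25 in KD1 RA cells (SE 0.15, limma adjusted p = 3.76e-05), and Col4a2 rose by 2.14 (SE 0.14, adjusted p = 3.54e-05). Fitted on all 12 arrays the differences were the same and were not called (adjusted p = 0.0871 and 0.0984). All 7 endoderm markers listed (Gata6, Gata4, Sox17, Sox7, Cubn, Dab2 and Lama1) also rose in KD1 RA cells, where their mean was 12.08 and 12.16 against 9.46 and 9.55 in scrambled and 10.34 in KD2. In ESC cells that mean was 7.56 and 7.47 in scrambled, 8.22 and 8.13 in KD1 and 8.59 in KD2, with 4 of 7 risen in KD1 and 3 of 7 in KD2. In such bulk RNA, a change in the share of a cell type and a change in RNA per cell cannot be told apart, and the part of cell makeup in the members' differences was not tested.

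**Figure D5:**
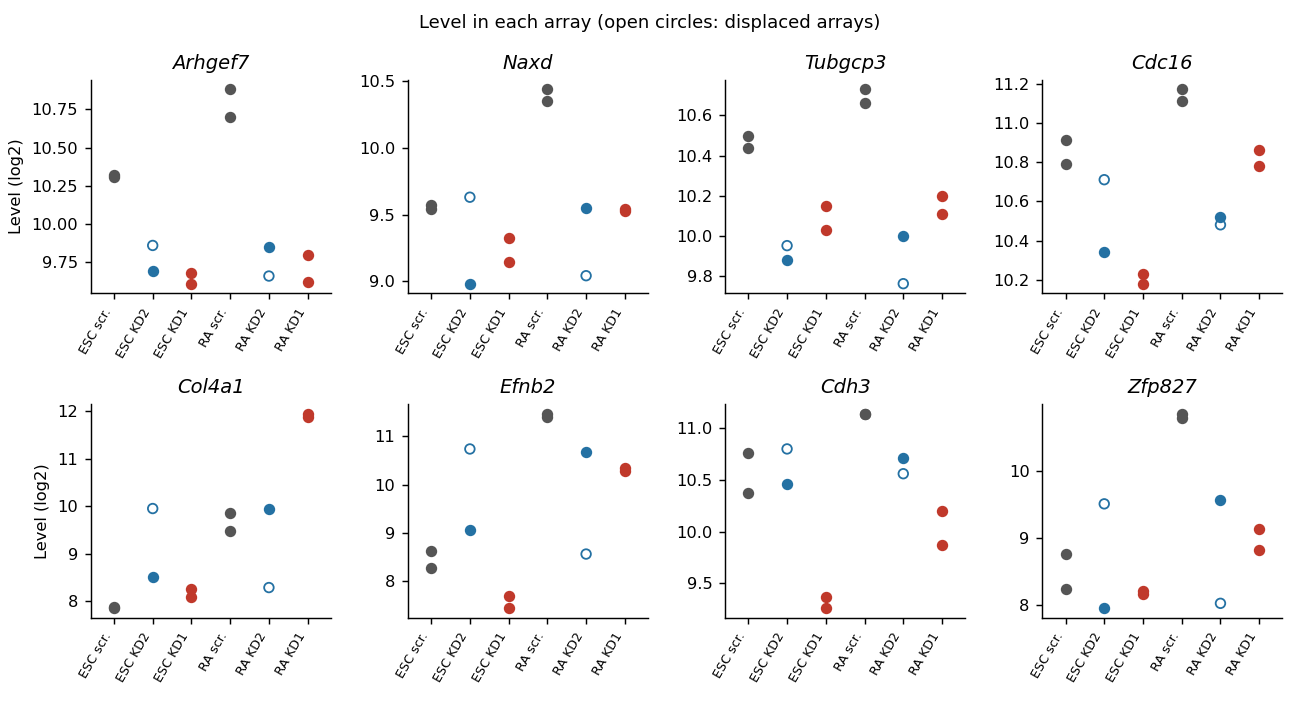
Log2 level of 8 members in each array, by line and state (1 point per array, grey for scrambled, blue for KD2, red for KD1, open circles for the displaced arrays). Arhgef7, Naxd and Tubgcp3 are lower in the knockdown arrays of RA than in scrambled, and Col4a1 is higher in KD1 RA cells, at 11.94 and 11.87.

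Beyond block 1, the members that fell most in KD1 ESC cells were spread over the order. Cdh3, which encodes P-cadherin, read 10.37 and 10.76 in scrambled, 9.26 and 9.37 in KD1 and 10.46 in KD2. It fell by 1.25 in KD1 ESC cells (SE 0.15, limma adjusted p = 0.00611) and by 1.11 in KD1 RA cells (SE 0.15, adjusted p = 0.00213), and with all 12 arrays only the second was called (adjusted p = 0.0705 and 0.0213). Its KD2 differences were -0.10 and -0.43. Tmem231, a protein of the base of the cilium, fell by 0.97 (SE 0.18, limma adjusted p = 0.0297), the short coiled-coil gene Scoc by 0.86, the phospholipase gene Ddhd2 by 0.84 and Micu3, a regulator of mitochondrial calcium uptake, by 0.77. Scoc read 10.37 and 10.54 in scrambled, 9.50 and 9.70 in KD1 and 9.49 in KD2. Its KD2 differences of -0.97 and -1.02 narrowly missed the threshold (limma adjusted p = 0.0612 and 0.0509). Scoc also fell in KD1 RA cells, by 0.72 (adjusted p = 0.0178). Of all members 10 fell in KD1 in both states (1.57%), against 0.441% of all genes, and none in KD2 in both, against 0.0351% of all genes by the same limma test. On all 12 arrays Tmem231 (limma adjusted p = 0.67), Scoc (0.518 and 0.34), Ddhd2 (0.248) and Micu3 (0.205) were not called.

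The 2 members that rose in KD1 ESC cells both lie in block 2. Sfrp1, a secreted antagonist of Wnt signals, read 9.99 and 9.71 in scrambled, 10.96 and 11.48 in KD1 and 9.86 in KD2, a rise of 1.37 in KD1 (SE 0.20, limma adjusted p = 0.0128). In KD1 RA cells the same gene fell by 0.91 (SE 0.20, adjusted p = 0.0209), from 11.39 and 11.79 in scrambled to 10.84 and 10.53. The homeobox gene Nkx6-3 rose by 1.18 in KD1 ESC cells (SE 0.14, limma adjusted p = 0.00578), from 7.81 and 7.47 to 8.79 and 8.85. Neither gene was called on all 12 arrays (limma adjusted p = 0.611 and 0.603 for Sfrp1, 0.137 for Nkx6-3). Without KD1 ESC replicate 2, 1 member was called higher, and without scrambled ESC replicate 1, 5 were.

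In KD1 RA cells the 6 largest falls among members with separate arrays were of genes that also rose from ESC to RA in scrambled cells. Both differences use the same scrambled RA arrays with opposite sign, so the 2 are not independent. Of all members 31.9% rose from ESC to RA in scrambled cells, against 21.8% of all genes. Cdh11, a mesenchymal cadherin, read 6.20 and 5.93 in scrambled ESC arrays and 11.26 and 11.32 in scrambled RA arrays. In RA it read 9.67 and 8.83 in KD1 and 10.27 in KD2. It fell by 2.04 in KD1 RA cells (SE 0.27, limma adjusted p = 0.00158). The forkhead gene Foxc2, a regulator of mesoderm, fell by 1.99 (SE 0.22, adjusted p = 0.000589), from 10.83 and 10.65 to 9.11 and 8.38. The matrix protease gene Mmp2 fell by 1.85 and the secreted protein gene Crispld2 by 1.84. The zinc finger gene Zfp827 fell by 1.83 (SE 0.18, adjusted p = 0.00034), from 10.85 and 10.78 to 9.14 and 8.82, and the nuclear factor gene Nfix by 1.48 (SE 0.13, adjusted p = 0.000205). None of these 6 was called with all 12 arrays, where the adjusted p ran from 0.177 to 0.681. The 6 fibroblast markers listed averaged 8.99 and 8.98 in scrambled RA arrays, 8.51 and 8.24 in KD1 and 8.75 in KD2, and 3 of the 6 fell in KD1. The 6 measured markers of retinoic acid response averaged 11.61 and 11.64 in scrambled, 10.90 and 10.96 in KD1 and 11.05 in KD2, and 4 of the 6 fell in KD1. The part of cell makeup in these falls was not tested.

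Besides the collagen pair, 4 further members led those that rose in KD1 RA cells. Nrg1, the growth factor neuregulin, read 7.69 and 7.66 in scrambled, 9.18 and 9.32 in KD1 and 8.23 in KD2, and it rose by 1.57 (SE 0.14, limma adjusted p = 0.000213). It was among the few called with all 12 arrays (adjusted p = 0.00974), as was Clgn, a chaperone of the endoplasmic reticulum, which rose by 1.03 (SE 0.13, adjusted p = 0.00104, and 0.0469 with all 12 arrays). Triml2, a stem cell gene of the tripartite motif family, rose by 1.42 and Apela, a peptide ligand of the apelin receptor, by 1.25. Both stood higher in ESC cells, where Triml2 read 11.38 and 11.31 and Apela 12.13 and 12.23 in scrambled. In RA Triml2 read 7.93 and 8.83 in scrambled and 9.60 and 10.00 in KD1. Its scrambled RA arrays lay far apart, but both were below KD1. The 8 ESC markers listed did not share this rise: they averaged 8.51 and 9.37 in scrambled RA arrays, 9.16 and 8.85 in KD1 and 9.58 in KD2. Of these 8 markers, 2 rose and 1 fell in KD1 RA cells, where 5.38% of all genes rose and 6.69% fell. Neither Triml2 nor Apela was called on all 12 arrays (limma adjusted p = 0.485 and 0.346).

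KD2 had few calls. In KD2 ESC cells Aga, a lysosomal enzyme, fell by 1.43 (SE 0.26, limma adjusted p = 0.0444), with 8.77 and 9.38 in scrambled, 7.91 and 8.24 in KD1 and 7.64 in KD2. Vps35, a subunit of the retromer that sorts cargo from endosomes, fell by 0.53 (SE 0.10, adjusted p = 0.0492), from 11.87 and 11.88 to 11.34. Plat, the tissue plasminogen activator, rose by 1.17 (SE 0.16, adjusted p = 0.0149), from 6.44 and 6.62 to 7.70. In KD2 RA cells the forkhead gene Foxf1 fell by 1.26 (SE 0.21, adjusted p = 0.0329), with 11.85 and 12.08 in scrambled, 11.45 and 11.84 in KD1 and 10.71 in KD2. Zfp827 fell by 1.24 there (SE 0.22, adjusted p = 0.0426) and the HMG box gene Hmgxb4 by 0.63 (SE 0.12, adjusted p = 0.0459), and in KD1 RA cells Hmgxb4 fell by 0.72 (SE 0.09, adjusted p = 0.00159). Pgbd5, a gene derived from a transposase, rose in KD2 RA cells by 0.78 (SE 0.14, adjusted p = 0.0453), and in KD1 ESC cells it fell by 0.67 (adjusted p = 0.0245). Each KD2 value here rests on 1 array, and with all 12 arrays none of these KD2 calls remained (limma adjusted p from 0.219 to 0.493), nor did the KD1 calls of Hmgxb4 (0.192) and Pgbd5 (0.515).

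The members were also grouped by role. In KD1 RA cells 23.0% of all members fell and 3.93% rose, against 6.69% and 5.38% of all genes. In KD1 ESC cells 3.77% of all members fell and 0.314% rose, against 1.07% and 0.843% of all genes. The group counts are to be read beside these shares, and no group was tested against the other members. Of 10 genes of cadherins and cell adhesion, 1 (Cdh3) fell in KD1 ESC cells and 4 (Cdh1, Cdh3, Cdh11 and Pdlim3) fell in KD1 RA cells, where all 10 were below scrambled and the median was -0.41. In KD2 none was called, with medians of 0.06 in ESC and -0.25 in RA. Of 6 genes of basement membrane and matrix, 3 rose in KD1 RA cells (Col4a1, Col4a2 and the collagen-modifying enzyme gene Colgalt1) and 2 fell (Mmp2 and Crispld2), and Plat rose in KD2 ESC cells. Of 15 receptors and growth signalling genes, 5 fell in KD1 RA cells (Fgfr1, Nrp1, Smad1, Sfrp1 and Plcg2) and 1 rose (Nrg1). Smad1, which carries bone morphogenetic protein signals, fell by 1.0 (SE 0.14, limma adjusted p = 0.00242), from 10.13 and 9.91 to 9.13 and 8.90, and was not called on all 12 arrays (adjusted p = 0.364). Of 12 developmental transcription factors, 3 fell in KD1 RA cells (Foxc2, Hand2 and Tox3) and 1 rose (Sall1), 1 rose in KD1 ESC cells (Nkx6-3) and 1 fell in KD2 RA cells (Foxf1). Medians of this group lay between -0.03 and 0.07 in the 4 comparisons.

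The remaining groups had mostly small differences below 0. Groups can overlap, and Smad1 and Sall1 are counted again among the chromatin and transcription regulators. Of 29 genes of RNA processing and translation, 28 were below scrambled in KD1 ESC cells with no call (median -0.21), and 24 in KD1 RA cells with 4 fallen (Sf3b3, Polr2c, Nudt21 and Trmt1; median -0.19). In KD2 23 and 18 were below, with medians of -0.11 and -0.07. Polr2c, a subunit of RNA polymerase II and the member nearest to the middle of block 7, read 11.70 and 11.64 in scrambled RA cells and 11.40 and 11.37 in KD1, a fall of 0.29 (SE 0.07, limma adjusted p = 0.0358). Of 23 genes of replication, mitosis and DNA repair, 2 fell in KD1 ESC cells (Cdc16 and Rfwd3) and 7 in KD1 RA cells, Tubgcp3 and Cul4a among them, and none rose. Their medians were -0.31 in both states of KD1, -0.21 in KD2 ESC and -0.14 in KD2 RA cells. Of 40 chromatin and transcription regulators, 12 fell and 1 rose in KD1 RA cells, with Nfix (-1.48), Smad1 (-1.0) and the chromodomain gene Chd9 (-0.81, SE 0.14, adjusted p = 0.00548) changed most. None of the 40 was called in the other 3 comparisons, where 29 were below scrambled each time and the medians lay between -0.15 and -0.10. Polr2c and Chd9 were not called on all 12 arrays (limma adjusted p = 0.446 and 0.391).

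Of 25 genes of mitochondria and metabolism, 2 fell in KD1 ESC cells (Got2 and Tomm20), and 7 fell and 2 rose in KD1 RA cells. Tomm20, a receptor of the outer mitochondrial membrane, fell by 0.42 in ESC (SE 0.08, limma adjusted p = 0.0441) and by 0.50 in RA (SE 0.08, adjusted p = 0.0053). The members that rose were the amino acid transporter gene Slc7a5, by 0.57 (SE 0.08, adjusted p = 0.00194), and the acid ceramidase gene Asah1, by 0.67 (SE 0.16, adjusted p = 0.0292). Of 30 genes of protein folding, degradation and trafficking, 1 fell in KD1 ESC cells (Lamp1), 5 fell and 1 rose (Calr) in KD1 RA cells and 1 fell in KD2 ESC cells (Vps35). Cog4, a Golgi tethering subunit, fell by 0.55 in KD1 RA cells (SE 0.10, adjusted p = 0.00823), with the ubiquitin ligase genes Siah1a (-0.60) and Wwp2 (-0.58). On all 12 arrays none of these was called (limma adjusted p = 0.686 and 0.338 for Tomm20, 0.732 for Slc7a5, 0.238 for Asah1, 0.0518 for Cog4, 0.101 for Siah1a and 0.166 for Wwp2). Of 5 genes listed as metallothioneins and apoptosis genes none was called by limma in any of the 4 comparisons. Mt1, the most changed of them, differed by -0.52 in KD2 ESC cells (SE 0.25, adjusted p = 0.463). The groups were written with earlier results of these data known, and the medians of all 636 members stand at -0.20, -0.25, -0.10 and -0.16 beside them.

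Members typical of the later blocks show how small the common difference is in a single gene. Cherp, a member of block 5 that takes part in RNA splicing, read 11.58 and 11.55 in scrambled RA arrays, 11.29 and 11.27 in KD1 and 11.35 in KD2. Its 4 differences ran from -0.29 to -0.12 and none was called. Heatr3 of block 6, the quinone reductase gene Nqo1 of block 8, Cfdp1 of block 9 and Tcf25 of block 10 likewise gave only differences below 0 and no call, between -0.38 and -0.06. In blocks 2 to 4 the typical members were the membrane protease gene Adam9 (-0.26 to 0.29), Hpf1, a cofactor of ADP-ribosylation (-0.21 to 0.05), and Armc6 (-0.14 to 0.12).

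The culture state moved the members in scrambled cells without a shared direction. Against ESC, 203 members rose and 180 fell in RA (limma, adjusted p under 0.05), where 21.8% of all genes rose and 20.8% fell, and the members' median was -0.02 against -0.01 for the other genes. The sign of that median changed without scrambled ESC replicate 2 (0.041) or scrambled RA replicate 2 (0.023). On all 12 arrays 74 members rose (11.6%, against 8.14% of all genes) and 34 fell (5.35%, against 5.66%). Nrp1, a receptor of semaphorins and of vascular growth factor, went from 6.27 and 5.96 in ESC to 11.46 and 11.51 in RA (5.37, SE 0.14, limma adjusted p = 1.26e-07). Cdh11 rose by 5.22, Plat by 4.84 and Foxc2 by 4.53. On the other side the stem cell genes Zfp42 (-3.85), Triml2 (-2.97), Triml1 (-2.94) and Klf2 (-2.90) fell. Zfp42, Triml1 and Triml2 are neighbours at places 147 to 149 of the order.

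Whether the lines differ from each other was tested directly. Between KD1 and KD2, 17 members were called in ESC, 3 higher in KD1 and 14 lower, where 2.19% of all genes were called, and 17 in RA, 11 higher and 6 lower, where 3.72% were called. The median member was lower in KD1 than in KD2 by a difference of -0.09 in each state, and the other genes by -0.07 and -0.06. With all 12 arrays limma called 0 and 6 members, where 0.13% and 1.34% of all genes were called. At an unadjusted p under 0.05 there were 90 and 98 members (14.2% and 15.4%), against 16.6% and 13.5% of all genes, so these shares were near the background. The 17 of ESC became 30 without either scrambled ESC array, 1 without KD1 ESC replicate 2, 8 without either scrambled RA array and 4 without either KD1 RA array. The 17 of RA became 32 without either scrambled ESC array, and 11 and 4 without the first and second KD1 RA array. Whether the effect of a line differed between RA and ESC was tested as well: for KD1 37 members were called, 19 with a higher and 18 with a lower effect in RA, where 4.82% of all genes were called. Without 1 of the KD1 arrays or of the scrambled RA arrays the 37 became 6 to 18. For KD2 1 member, Plat, was called, where 0.351% of all genes were, and the count became 4 without scrambled ESC replicate 1 and 0 without any one of the RA arrays of scrambled and KD1. Neither comparison had a call by limma on all 12 arrays among the members, where 0.261% and 0.0201% of all genes were called. At an unadjusted p under 0.05 there were 44 and 159 (6.92% and 25.0%), against 8.03% and 21.7% of all genes. The median of the difference of effects was -0.06 for KD1 and -0.05 for KD2, against 0.006 and -0.003 for the other genes, and that of KD2 was 0.007 with all 12 arrays.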

How the data were processed

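Expression was measured on 12 arrays in 6 groups of 2. The authors deposited log2 expression values made with RMA, per the submitters' processing notes; its version is not given in the sources used here, and the values were used as deposited. Of 35556 probe sets, 21789 carried 1 gene symbol, 1621 several and 12146 none. Each of 19936 genes was represented by its brightest single-gene probe set, and 19919 matched the RefSeq table, which gave chromosome and gene order. The 12 array medians lay between 7.173 and 7.243. RMA aligns the arrays' distributions, so levels are relative within an array, and the number of arrays limits precision.

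Differences were fitted with limma 3.58.1 in R 4.3.3 (1 mean per group, moderated variance with an intensity trend), on 10 arrays and across all genes, with Benjamini-Hochberg adjustment and a threshold of 0.05. The fit was tested on simulated data. Nothing in the labels ties replicate numbers across groups to a shared batch, and each state offers only 2 pairs. Named members are the most changed called members without array overlap in each comparison (up to 6 each way, 4 for RA against ESC), up to 3 per functional group, the member nearest each of 10 block medians, and those at the level limit; Cul4a, Tubgcp3 and others named as group members fall under the groups, and the microRNA genes and those only listed as called were named outside this rule. Alternatives covered arrays, the replicate block, the variance trend, scaling, level limit, probe set choice and leaving out each array. The members and lists were chosen with earlier results of these data known.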

Additional observations from a re-analysis of the deposited data

Results flagged for a closer look

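The results listed here are members whose difference itself was tested and passed (limma, adjusted p under 0.05), either between the knockdown lines or between the states. All values are log2 differences on 10 arrays, and those that involve KD2 rest on 1 KD2 array per state. In ESC, KD1 was lower than KD2 in Cdh3 (-1.15), Tmem231 (-1.17), Efnb2 (-1.48) and Plat (-1.08), and higher in Sfrp1 (1.36) and Nkx6-3 (0.95). In RA, KD1 was lower than KD2 in Nfix (-1.05, but 0.04 with an adjusted p of 0.984 on all 12 arrays) and Pgbd5 (-0.94), and higher in Col4a1 (1.98), Col4a2 (1.94), Nrg1 (1.01) and Foxf1 (0.94).

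The effect of KD1 was lower in RA than in ESC for Sfrp1 (-2.28), Cdh11 (-2.09), Foxc2 (-2.07), Zfp827 (-1.53), Crispld2 (-1.34), Nkx6-3 (-0.99), Smad1 (-0.87) and Nfix (-0.85). It was higher in RA for Col4a1 (1.93), Col4a2 (1.91), Nrg1 (1.44), Clgn (1.03), Triml1 (0.97) and Slc7a5 (0.57). The effect of KD2 was lower in RA than in ESC for Plat (-1.5). No group of 1 line in 1 state has the 4 or more arrays that a search for single outlying arrays needs.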

How the results depend on the processing

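The 4 medians of a line against scrambled stayed below 0 under every alternative run. With all 12 arrays Nfix in KD1 against KD2 in RA turned from -1.05 to 0.045 and the KD2 median difference of effects to 0.007; the median of KD1 against KD2 in ESC turned to 0.017 with arrays centred on other chromosomes, and that of RA against ESC to 0.004 with mean probe sets and to 0.041 and 0.023 without replicate 2 of scrambled ESC or RA. Counts are of members, fallen then risen. With all 12 arrays they were 0 and 0 in KD1 ESC, 18 and 3 in KD1 RA, 0 and 0 in KD2 ESC (median -0.134), 1 and 0 in KD2 RA, and 34 and 74 for RA against ESC; 0 and 6 were called between the lines, and 0 and 0 for the differences of effects. With the replicate block they were 198 and 9, 296 and 42, 28 and 19, and 87 and 7 (median -0.185), with 66 and 72 between the lines and 124 and 24 for the differences of effects; the labels do not say whether same-numbered arrays share a batch, and replicate differences of scrambled and KD1 correlated at 0.728 (ESC) and 0.166 (RA). Without the intensity trend 0 fell in KD2 ESC. Arrays centred on other chromosomes gave medians of -0.150 in KD1 ESC and -0.158 in KD2 ESC, with 6 fallen in KD2 ESC and 13 in KD2 RA. Quantile normalization again gave -0.163 and -0.140, with 15 fallen in KD2 RA. Without the level limit the medians were -0.091, -0.126, -0.074 and -0.081, with 2 risen in KD2 ESC, 2 called for the KD2 difference of effects, and offsets from scrambled of -0.060 (KD1) and -0.058 (KD2). At the upper quartile 1 rose in KD1 ESC, 83 fell and 16 rose in KD1 RA, 1 fell and 0 rose in KD2 ESC, 0 rose in KD2 RA, 114 fell and 97 rose for RA against ESC, 10 and 11 were called between the lines, and 15 and 0 for the differences of effects; the KD2 offset was -0.167. This limit tests fewer members; the other causes were not tested. Leaving out 1 array gave 2 to 36 fallen and 1 to 5 risen in KD1 ESC (median -0.209 to -0.194), 32 to 179 and 6 to 32 in KD1 RA (-0.274 to -0.215), 0 to 7 and 0 to 4 in KD2 ESC (-0.103 to -0.093), 0 to 19 and 0 to 1 in KD2 RA (-0.184 to -0.127), 128 to 180 and 148 to 208 for RA against ESC, 1 to 30 and 4 to 32 between the lines, and 6 to 41 and 0 to 4 for the differences of effects. Of 134 calls on named members in all comparisons, 109 were lost with all 12 arrays, 9 without the trend, 8 with centring, 4 with quantile normalization, 5 with mean probe sets and 0 with the replicate block.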
